A study of Mus musculus with 6 samples.

Results

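The untreated C2C12 myotubes of the study, called Ctrl-M, were described on their own, to show what a myotube culture expressed on day 6 of differentiation, which isoforms gave the brighter signals and what lay near background. The 2 arrays whose labels say untreated were taken, of 6 arrays in all, and the 4 arrays of extract-treated myotubes were left out. C2C12 is a single mouse myoblast line from skeletal muscle. The myoblasts were grown to near confluence and switched to a low-serum medium with horse serum and antibiotic. The treated groups received a sugarcane top ethanol extract for 6 h in serum-free medium before RNA was isolated. The sources used here do not say what medium the untreated wells held during those hours. Nor do they say whether RNA of the untreated wells was isolated at the same time. The paper calls the replicates of a group biological, whereas the deposited design speaks of arrays run in duplicate, and no source used here says that they came from separate cultures, so the spread between both arrays may be technical.

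When serum is withdrawn, myoblasts leave the cell cycle, fuse and become multinucleated myotubes. The bHLH factors MYF5, MYOD1, myogenin and MRF4 (the gene *Myf6*) drive this programme together with MEF2 proteins, and the sarcomere, the calcium release apparatus and the acetylcholine receptor are built in turn. Many of these proteins come in embryonic, neonatal and adult isoforms from separate genes, and myotubes in culture are known for carrying early and late ones side by side. Some mononucleated cells usually remain among the myotubes, and signals of the culture are a sum over both.

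Total RNA had been read on Clariom S Mouse arrays, which hold 1 probe set for most genes. The deposited values are log2 signals from SST-RMA, a method that corrects for probe base composition, and 22206 probe sets were read here. Their median was 5.76 in replicate 1 and 5.75 in replicate 2, and the brightest reached 19.31 and 19.40. Below, 2 values given for a gene are its log2 signals in replicate 1 and replicate 2, in that order. A percentile is the place of the gene's mean among the 22206 probe sets. A signal depends on the probes of its own probe set, so ranks order signals, not numbers of transcripts, and no fold between genes is given. In a culture of several cell states, fewer cells of one kind and less RNA per cell cannot be told apart.

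Background was read from receptors for odours, pheromones and taste, genes without a well-known role in muscle. Their 1497 probe sets had a median of 3.90, and the 95th percentile of their means, 5.286, was taken as the background level. A probe set counted as above background when both arrays lay above that level. Of all probe sets 11811 (53.2%) were above, and of 21154 genes, each with its brightest probe set, 11302 (53.4%) were. Each count of list members below is to be read beside that 53.4%. Of the chemosensory probe sets themselves 3.47% were above. The level was not the same for every probe: control probes without a target read 7.57 at 3 G or C bases, 2.38 at 15 and 6.04 at 23, so a gene read a little above 5.286 is close to what a probe can give alone. The authors' own deposited Ctrl-M average is on another scale, with a maximum of 13.03 where the arrays' mean reaches 19.34, and the same rule on it placed 584 of the 710 measured genes of the lists below above background, against 491 on the arrays. Both scales placed 488 above and 123 not above. Where a gene named below lay above on only 1 of the scales, this is said beside it.

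**Figure D1:**
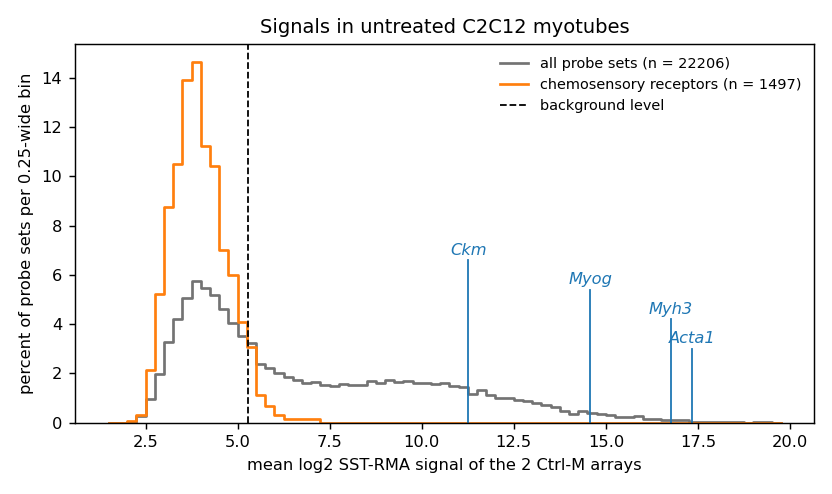
Percent of probe sets (vertical axis) by mean log2 SST-RMA signal of the 2 Ctrl-M arrays (horizontal axis), for all 22206 probe sets (grey) and for 1497 chemosensory receptor probe sets (orange), with the background level of 5.286 as a dashed line. The 4 myotube markers, drawn as blue lines, all lie to the right of the chemosensory receptors, and *Acta1* is farthest out.

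The 4 markers of a myotube were all far above background. *Acta1*, skeletal alpha-actin, read 17.33 and 17.34 (17.34 ± 0.01, SD, n = 2, percentile 99.8), and *Myh3*, embryonic myosin heavy chain, read 16.64 and 16.88 (16.76 ± 0.17, SD, n = 2, percentile 99.5). *Myog*, the factor that switches on late muscle genes, read 14.59 and 14.55 (14.57 ± 0.03, SD, n = 2, percentile 97.4). *Ckm*, the creatine kinase of mature muscle, was the dimmest of the 4 and read 11.04 and 11.49 (11.27 ± 0.32, SD, n = 2, percentile 86.6). The label of the cells as myotubes was thus met by each of its markers in both arrays. All 4 were above on the authors' average too.

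The promoters of these markers are shown because the markers, bright as they are, differ in which of the motif forms searched here they hold. Near matches to these forms were not counted. Each sequence holds the 250 bases before the transcription start that the RefSeq promoters of GRCm38.p6 give, 5′ to 3′ on the gene's strand. *Myog* lies on the plus strand at chr1:134289754-134290003, *Myh3* on the plus strand at chr11:67078050-67078299, *Acta1* on the minus strand at chr8:123894776-123895025 and *Ckm* on the plus strand at chr7:19410844-19411093. Capitals mark the E-box CAGCTG, a form that myogenic bHLH factors are known to bind, the TATA box TATAAA, the MEF2 motif and the CArG box of serum response factor, each searched on both strands.
Myog: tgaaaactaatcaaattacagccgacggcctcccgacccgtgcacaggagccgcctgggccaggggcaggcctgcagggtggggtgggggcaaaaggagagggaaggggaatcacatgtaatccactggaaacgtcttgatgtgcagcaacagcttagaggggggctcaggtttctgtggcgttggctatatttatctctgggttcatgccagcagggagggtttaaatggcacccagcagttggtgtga
Myh3: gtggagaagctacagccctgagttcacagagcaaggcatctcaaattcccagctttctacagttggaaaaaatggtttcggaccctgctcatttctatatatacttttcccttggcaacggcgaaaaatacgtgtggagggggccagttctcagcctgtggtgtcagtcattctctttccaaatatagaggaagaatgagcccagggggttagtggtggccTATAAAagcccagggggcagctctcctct
Acta1: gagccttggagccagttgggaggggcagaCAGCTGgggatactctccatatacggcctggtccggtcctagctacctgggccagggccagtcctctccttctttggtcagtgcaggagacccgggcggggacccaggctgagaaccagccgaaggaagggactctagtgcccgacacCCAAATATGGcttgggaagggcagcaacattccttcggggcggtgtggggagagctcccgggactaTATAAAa
Ckm: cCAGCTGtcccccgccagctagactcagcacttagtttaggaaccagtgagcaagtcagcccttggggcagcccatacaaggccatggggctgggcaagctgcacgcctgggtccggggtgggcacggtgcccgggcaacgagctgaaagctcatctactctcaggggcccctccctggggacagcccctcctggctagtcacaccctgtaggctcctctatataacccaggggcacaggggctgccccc
*Acta1* held an E-box from 221 to 216 bases before its start, a CArG box from 73 to 64 and a TATA box from 7 to 2. These distances run from the RefSeq start, and whether transcription begins at that base in these cells was not tested. In *Myh3* the TATA box lay 29 to 24 bases before the start and was the only one of these motifs. The RefSeq span of *Myh3* begins at 67078273, inside this window, so that distance depends on the start chosen. *Ckm* held 1 E-box, 249 to 244 bases before its start. *Myog* held none of the 4 in this form, which says only that these letters are not in this window. Among all 32851 RefSeq promoters, 13.0% held the E-box, 12.4% the TATA box, 1.69% the MEF2 motif and 1.47% the CArG box.

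The 4 myogenic bHLH factors were spread over the whole range of signals. After *Myog* came *Myf5*, usually a gene of early myoblasts, at 11.66 and 11.72, and then *Myod1*, the determination factor, at 8.84 and 8.88. *Myf6*, whose product MRF4 is the factor of mature fibres, read 4.03 and 3.82 and was below background on both scales. Each gap between neighbours in this order was wider than the spread between the arrays. In the list of MEF2 and homeobox factors and cofactors 16 of 19 measured genes were above, beside 53.4% of all genes. *Mef2a* read 15.66 and 15.70, *Mef2c* 14.62 and 14.37 and *Mef2d* 13.56 and 13.23, while *Mef2b* read 3.14 and 3.29. Homeobox factors and their EYA partners, which act upstream of myogenin, included *Eya4* at 12.44 and 12.43. *Eya2*, at 3.0 and 3.08, was below on both scales, and *Mef2b* and *Six5* were above on the authors' average only.

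Genes of the 2 fusion proteins gave signals far apart. *Mymk*, which encodes the membrane fusion protein myomaker and carries an older symbol on the array, read 16.41 and 16.54 (percentile 99.4). *Mymx*, for its partner myomixer, also under an older symbol, read 7.78 and 7.98 (percentile 64.9). Of the genes that hold myogenesis back, 7 of 12 were above (58.3%, near the 53.4% of all genes), among them *Id1*, an antagonist of bHLH factors, at 11.63 and 11.29, and *Bhlhe40*, a bHLH repressor, at 14.41 in both arrays. *Twist1*, *Twist2*, *Msc*, *Mdfi* and *Id4* were not above here and were above on the authors' average.

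**Figure D2:**
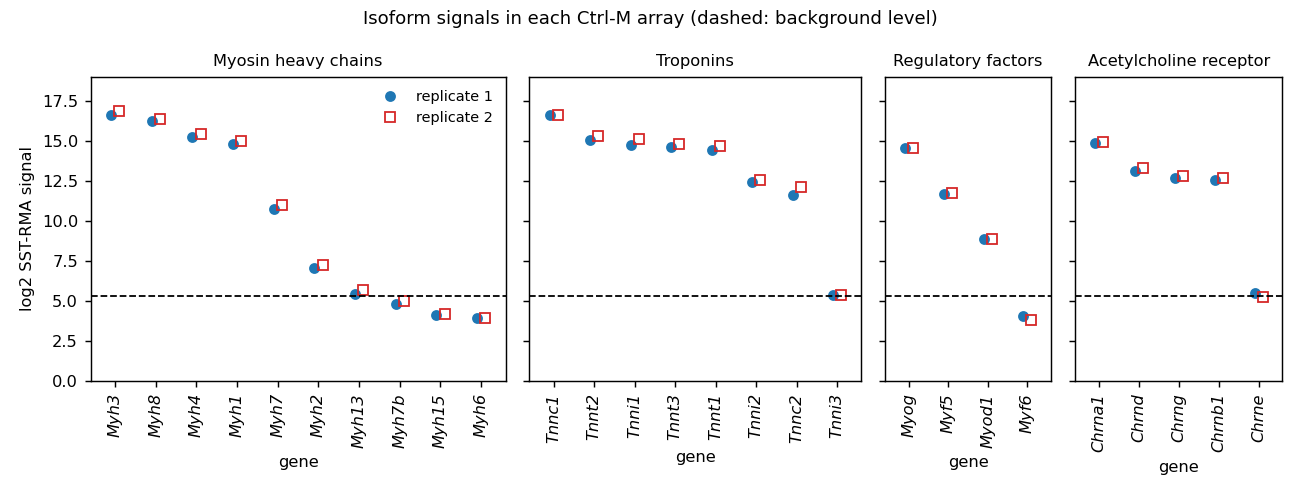
Log2 SST-RMA signals (vertical axis) of the sarcomeric myosin heavy chain, troponin, myogenic factor and acetylcholine receptor genes (horizontal axis) in Ctrl-M replicate 1 (filled circles) and replicate 2 (open squares), with the background level of 5.286 dashed. *Myh3* heads its family at 16.64 and 16.88, while *Myf6* and *Myh6* lie below the line in both arrays and *Chrne* straddles it.

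Embryonic and neonatal chains gave the brightest signals of the sarcomeric myosin heavy chains, and 7 of the 10 genes were above background. *Myh3* was followed by *Myh8*, the neonatal chain, at 16.23 and 16.39. The adult fast chains came next, with *Myh4*, the chain of 2B fibres, at 15.26 and 15.47, and *Myh1*, the chain of 2X fibres, at 14.81 and 15.00. *Myh7*, the slow and cardiac chain, had a mean of 10.87 ± 0.18 (SD, n = 2), and *Myh2*, the chain of 2A fibres, 7.07 and 7.24. No neighbours in this order overlapped between arrays down to *Myh13*, an extraocular chain, at 5.43 and 5.66, which is close to the level. *Myh6*, the atrial chain, at 3.91 and 3.93, and *Myh7b* at 4.81 and 5.00 were above on the authors' average only, and *Myh15* was below on both scales. *Myh3*, *Myh2*, *Myh1*, *Myh4*, *Myh8* and *Myh13* lie in this order in 1 cluster on chromosome 11, from 67078273 to 67371587 in GRCm38, so that *Myh1*, *Myh4* and *Myh8*, all bright, lie side by side and the dimmer *Myh2* lies between *Myh3* and *Myh1*. These genes are close in sequence, and whether a probe set also picked up transcripts of a neighbour was not tested, so the order is uncertain to that extent.

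Light chains of fast and embryonic muscle were as bright as the heavy chains. *Mylpf*, the fast regulatory light chain, read 17.33 and 17.54, *Myl1*, the fast essential light chain, 17.07 and 17.17, and *Myl4*, the embryonic and atrial one, 15.87 and 15.97. The slow and cardiac light chains lay far lower. *Myl3* read 5.42 and 5.59, and *Myl2* read 6.26 in replicate 1 and 7.58 in replicate 2, which made it 1 of the genes above background that differed most between both arrays. *Myl2* was not above on the authors' average. *Myl7*, the atrial regulatory chain, at 4.28 and 4.87, was above only there. In all 13 of 14 genes of this list were above.

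Slow, cardiac and fast troponins were all present together, with 8 of 8 above background. *Tnnc1*, slow and cardiac troponin C, read 16.66 in both arrays, and *Tnnc2*, its fast counterpart, 11.62 and 12.09. *Tnnt2*, cardiac troponin T and a known marker of embryonic skeletal muscle, read 15.04 and 15.32, beside 14.62 and 14.79 for the fast *Tnnt3* and 14.42 and 14.68 for the slow *Tnnt1*. The arrays of these last 2 genes overlapped in value, so their order is not settled by the spread. *Tnni1*, slow troponin I, read 14.78 and 15.12 and *Tnni2*, the fast form, 12.44 and 12.57. *Tnni3*, cardiac troponin I, read 5.35 in both arrays, just above the level, and was not above on the authors' average.

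The actins and tropomyosins were among the brightest genes of the arrays. All 5 measured actin genes were above, and *Actb*, cytoplasmic beta-actin, at 19.27 and 19.29, *Acta2*, smooth muscle alpha-actin, at 18.13 and 18.22, and *Acta1* were brighter than *Actc1*, cardiac alpha-actin, at 14.18 and 14.43. The actins are nearly identical in their coding parts, and what their probe sets share was not tested. The 4 tropomyosin genes read from 15.57 (*Tpm4*, replicate 1) to 17.12 (*Tpm1*, replicate 2).

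In the thin filament and Z disc list 31 of 35 genes were above background, and in the list of the thick filament and M band 12 of 14 were. *Des*, the muscle intermediate filament, read 15.19 and 15.21, and *Vim*, the filament of myoblasts and other mesenchymal cells, 18.61 and 18.77. Among the giant proteins *Ttn*, titin, read 12.01 and 12.81 and *Neb*, nebulin, 10.11 and 10.36, an order that held in both arrays. *Mybph*, which encodes myosin binding protein H, read 15.46 and 15.56. Of the genes of myosin binding protein C, *Mybpc1*, the slow form, read 9.25 and 9.67 and *Mybpc2*, the fast form, 4.10 and 4.16. *Mybpc3*, the cardiac form, at 2.90 and 2.82, was below on both scales, as were *Nebl* and *Tmod4*. Of 2 alpha-actinin genes of the Z disc, *Actn2* read 12.38 and 12.57 and *Actn3*, the fast fibre form, 12.42 and 12.47, which overlap. *Tcap*, telethonin of the Z disc, read 5.64 and 5.92. Of the Z disc genes of the myozenin family, *Myoz1*, the fast form, read 4.41 and 4.42 and *Myoz2*, the slow and cardiac form, 13.40 and 13.30. *Myoz1*, *Myoz3* and *Mybpc2* were above on the authors' average only.

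The apparatus that couples the membrane potential to calcium release was largely present, with 27 of 30 measured genes above (90.0%, beside 53.4% of all genes). *Cacna1s*, the voltage sensor of the transverse tubule, read 8.48 and 8.75, and *Ryr1*, the release channel, 8.18 and 8.52. The subunits *Cacng1*, at 13.06 and 13.43, and *Cacnb1*, at 12.43 and 12.25, had brighter signals than the channel itself. *Ryr3*, a release channel of developing muscle, read 6.87 and 6.79, and *Ryr2*, the cardiac one, 4.78 and 4.22. *Casq2*, the calsequestrin of slow and cardiac muscle, stood at 15.63 and 15.78 (percentile 98.8), and *Casq1*, the fast form, at 9.58 and 10.10 (percentile 77.7). Both calcium pumps were bright, with *Atp2a2*, the slow, cardiac and housekeeping pump, at 14.58 and 14.68 and *Atp2a1*, the fast pump, at 13.43 and 13.41. Of their small inhibitors, *Sln*, sarcolipin, read 5.17 in replicate 1 and 5.16 in replicate 2 and was above on the authors' average only, as was *Ryr2*. *Pln*, phospholamban, at 3.83 and 2.95, was below on both scales.

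The acetylcholine receptor had the subunits of fetal muscle. *Chrna1*, the subunit that binds the transmitter, read 14.90 and 14.93, *Chrnd* 13.15 and 13.31 and *Chrnb1* 12.55 and 12.66. *Chrng*, the fetal gamma subunit, read 12.70 and 12.82 (percentile 93.0), and *Chrne*, the epsilon subunit that replaces it at innervated junctions, 5.48 and 5.25 (percentile 46.0), with replicate 2 below the level. *Musk*, the kinase that clusters the receptor, read 14.05 and 14.06. *Lrp4*, its agrin receptor, read 13.12 and 13.37, and *Rapsn*, rapsyn, 8.58 and 8.70. *Ache*, acetylcholinesterase, was below the level at 4.43 and 4.69. In all 13 of 15 genes of the list were above (86.7%, beside 53.4% of all genes). *Chrne* and *Ache* lay above on the authors' average only, at percentiles of 49.5 and 43.1 there.

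The promoters of the exchanged subunits are printed to show that the E-box is found in both. The 250 bases before the start of *Chrng* lie on the plus strand at chr1:87205561-87205810 and those of *Chrne* on the minus strand at chr11:70619195-70619444, with the motifs in capitals as above.
Chrng: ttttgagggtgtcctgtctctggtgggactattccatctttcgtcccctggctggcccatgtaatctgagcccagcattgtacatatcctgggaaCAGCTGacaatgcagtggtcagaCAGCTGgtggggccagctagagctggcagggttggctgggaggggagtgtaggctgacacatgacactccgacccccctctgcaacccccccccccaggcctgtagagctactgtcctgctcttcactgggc
Chrne: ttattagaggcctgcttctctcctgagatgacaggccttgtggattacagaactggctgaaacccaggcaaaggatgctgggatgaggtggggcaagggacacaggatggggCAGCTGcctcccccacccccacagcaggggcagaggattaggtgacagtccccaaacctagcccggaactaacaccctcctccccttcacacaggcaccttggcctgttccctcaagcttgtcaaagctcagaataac
*Chrng* held the E-box CAGCTG at 155 to 150 and at 132 to 127 bases before its start, and *Chrne* held it once, at 138 to 133. The RefSeq span of *Chrne*, on the minus strand, reaches to 70619213, inside its window, so its distance depends on the start chosen. Neither held the TATA box, the MEF2 motif or the CArG box in this window.

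Core motifs were counted by signal over 18973 promoters of 15541 measured genes. The GC box GGGCGG was in 26.2% of promoters of genes with a mean at or below background, in 50.6% up to a log2 signal of 8, in 59.4% from 8 to 11, in 61.8% from 11 to 14 and in 57.8% above 14. The TATA box was most frequent at the dim end and had a smaller second high at the bright end, with 17.2%, 8.52%, 5.70%, 6.09% and 9.48% in the same order. The E-box CAGCTG had about the same share everywhere, between 10.5% and 13.2%. In the 89 promoters of the contractile genes measured here the shares were 28.1% for the E-box, 16.9% for the TATA box, 12.4% for the MEF2 motif and 12.4% for the CArG box, beside 12.4%, 11.2%, 1.58% and 1.32% of the promoters of all measured genes. Genes with several starts count once for each, so these shares are descriptions and promoters of 1 gene are not independent.

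**Figure D3:**
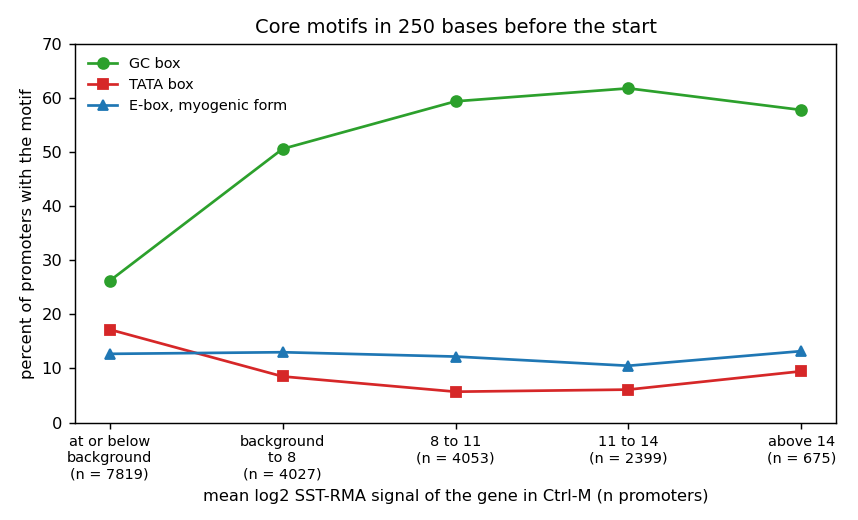
Percent of promoters (vertical axis) that held the GC box, the TATA box or the myogenic form of the E-box in the 250 bases before the start, by the mean log2 SST-RMA signal of their gene in Ctrl-M (horizontal axis). The share with a GC box goes from 26.2% in the dimmest class to 61.8% between 11 and 14, while the E-box stays between 10.5% and 13.2%.

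Dystrophin stood apart from the complex it belongs to. *Dmd* read 3.59 and 3.33 (3.46 ± 0.18, SD, n = 2, percentile 10.0) and was below background on both scales, while the other 12 measured genes of the list were above. *Dag1*, dystroglycan, read 16.67 and 16.64 and *Sgcb*, beta-sarcoglycan, 13.49 and 13.60. *Sgca*, alpha-sarcoglycan, the form of striated muscle, read 8.57 and 8.83. *Utrn*, utrophin, the relative of dystrophin, read 13.25 and 13.02. The array reads *Dmd* with 1 probe set, and which of its many transcripts that set covers was not tested.

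Of the genes of membrane excitability 11 of 24 measured were above (45.8%, beside 53.4% of all genes). *Scn4a*, the adult muscle sodium channel, read 8.30 and 8.52. *Clcn1*, the chloride channel that sets the resting conductance of fibres, was below on both scales at 4.04 and 3.37.

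Energy metabolism gave mixed isoforms, with 38 of 55 measured genes of creatine use, glycolysis and glycogen above background (69.1%, beside 53.4% of all genes). *Ckm* and *Ckb*, the brain form at 10.54 and 10.86, lay close together without overlap. Their order was reversed on the authors' average, with *Ckb* at percentile 91.3 and *Ckm* at 86.5, so it depends on the scale. *Ckmt2*, the mitochondrial kinase of sarcomeric muscle, was below on both scales at 4.28 and 4.10. Of the glucose transporters *Slc2a1*, the common GLUT1, read 14.48 and 14.32, whereas *Slc2a4*, the insulin-regulated GLUT4, read 5.42 and 5.19 (percentile 45.2) and was above only on the authors' average. *Eno3*, muscle enolase, read 12.77 and 13.06. *Pfkm*, the muscle phosphofructokinase, read 11.55 and 11.92 and the liver form *Pfkl* 11.59 and 11.65, which overlap. *Ldha* read 15.80 and 16.08 and *Ldhb*, the lactate dehydrogenase subunit of oxidative tissue, 5.07 and 5.27, above only on the authors' average. *Pygm*, the muscle phosphorylase, read 11.99 and 12.24. *Ampd1*, the muscle AMP deaminase, was below on both scales at 3.82 and 3.53, while *Ampd3*, the form of red cells, read 11.87 in both arrays. *Fbp2*, the muscle fructose bisphosphatase, was also below on both scales.

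Among the oxidative isoform pairs 26 of 40 measured genes were above (65.0%, beside 53.4% of all genes). The common forms of cytochrome oxidase subunits were brighter than those of adult heart and muscle in each of 3 pairs. *Cox6a1* read 13.84 and 13.81 and *Cox6a2*, the muscle form, 8.48 and 8.51. *Cox7a2* read 12.11 and 12.18 and *Cox7a1*, the muscle form, 6.10 and 6.25. For *Cox8a* the signals were 14.44 and 14.49 and for *Cox8b*, the muscle form in mice, 5.61 and 5.81. *Mb*, myoglobin, read 11.34 and 11.37. *Cpt1a*, the liver form of the carnitine transferase, read 10.29 and 10.10, and *Cpt1b*, the muscle form, 4.68 and 5.17, above on the authors' average only. *Ppargc1a*, which encodes the coactivator PGC-1alpha, was near the middle of all probe sets at 6.20 and 6.43 (percentile 54.7), and *Ppargc1b* read 9.22 and 9.48. *Ucp3*, the muscle uncoupling protein, at 4.49 and 4.66, was below on both scales.

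Genes of the cell cycle were bright in these cultures. All 24 measured genes of the proliferation list were above background in both arrays and on the authors' average, beside 53.4% of all genes. *Mki67*, a marker of cycling cells, read 15.24 and 15.11 (percentile 98.2), *Pcna*, the replication clamp, 15.54 and 15.56, and *Ccna2*, cyclin A, 14.82 and 14.62. The dimmest was *E2f1* at 8.37 and 8.11. In the list of cell cycle exit 13 of 16 measured genes were above (81.2%, beside 53.4% of all genes). *Cdkn1a*, the inhibitor p21 that marks withdrawal from the cycle, read 17.52 and 17.62 (percentile 99.8), and *Ccnd3*, the cyclin kept in differentiated muscle, 15.69 and 16.00. *Cdkn2a*, at 3.07 and 2.46, was below on both scales. How these genes are divided among myotubes and mononucleated cells cannot be told apart in total RNA.

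Markers of satellite cells and myoblasts were above in 13 of 16 cases (81.2%, beside 53.4% of all genes). *Ncam1*, an adhesion protein of fusing and uninnervated muscle, read 17.00 and 17.09, *Itga7*, the laminin receptor of muscle, 12.19 and 12.26, and *Cd34* 10.50 and 10.22. *Pax7*, the factor that defines satellite cells, read 5.30 and 4.96, on either side of the level, and was above on the authors' average only. *Pax3* read 6.19 and 6.05. *Calcr*, a gene of quiescent satellite cells, was below on both scales at 3.44 and 2.91.

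Markers of other cell types were mostly near background. None of the 8 macrophage and leukocyte genes and none of the 8 hepatocyte genes was above in both arrays, and the highest of them were *Cd68*, at 6.19 and 4.95, and *Serpina1a*, at 5.77 and 5.14, both above on the authors' average. Of the endothelial genes 2 of 8 were above, *Esam* at 5.91 and 5.83 and *Vwf* at 5.55 and 5.39. Of the cardiomyocyte genes 2 of 10 were, *Gata4*, a factor of heart and endoderm, at 8.08 and 7.92 and *Tnni3* at 5.35 in both arrays, which was not above on the authors' average. Of the adipocyte genes 2 of 9 were, the factors *Pparg* at 7.40 and 6.89 and *Cebpa* at 6.73 and 6.78. Of the Schwann and glial genes 1 of 7 was, the factor *Egr2*, and it was bright at 10.47 and 10.15. Of the neuron genes 2 of 8 were above, *Tubb3* at 11.04 and 11.13 and *Map2* at 9.26 and 9.29, and of the epithelial genes 2 of 8, *Cdh1* at 5.85 and 5.93 and *Krt8* at 5.78 and 5.74. The mean over the list was 4.42 and 4.31 for leukocytes, 4.35 and 4.45 for endothelium and 4.75 and 4.83 for cardiomyocytes. Other defining genes of these cells were low, and *Ptprc*, *Cdh5*, *Nppa* and *Adipoq* read 3.77 and 4.13, 3.62 and 3.63, 3.14 and 3.67, and 3.71 and 3.70. On the authors' average 4 of the hepatocyte genes, 4 more of the cardiomyocyte genes and 3 more of the adipocyte genes lay above.

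Several genes of the fibroblast, bone and cartilage lists were bright. Of the fibroblast list 5 of 7 measured genes were above, with *Col3a1* at 17.13 in both arrays, *Col1a2* at 15.13 and 15.02 and *Dcn*, decorin, at 14.60 and 14.72, while *Thy1*, a surface marker of fibroblasts, read 4.15 and 4.42 and was above on the authors' average only. Of the bone list 3 of 8 were above (37.5%) and of the cartilage list 2 of 7 (28.6%). Of the smooth muscle list 4 of 7 were above (57.1%, near the 53.4% of all genes). *Runx2*, the factor of bone, read 11.15 and 10.90, and *Sox9*, the factor of cartilage, 12.22 and 11.84. *Sp7*, of the bone list, at 3.74 and 3.84, and *Matn1*, of the cartilage list, at 3.26 and 2.86, were below on both scales. Both lists had further members above background that are not named here, so these genes do not stand for their lists. *Tagln*, a gene of smooth and early skeletal muscle, read 13.42 and 13.31, and *Myocd*, which drives the smooth muscle programme, 3.81 in both arrays. Myoblasts are known to make matrix themselves, and which cells the signals came from was not tested.

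**Figure D4:**
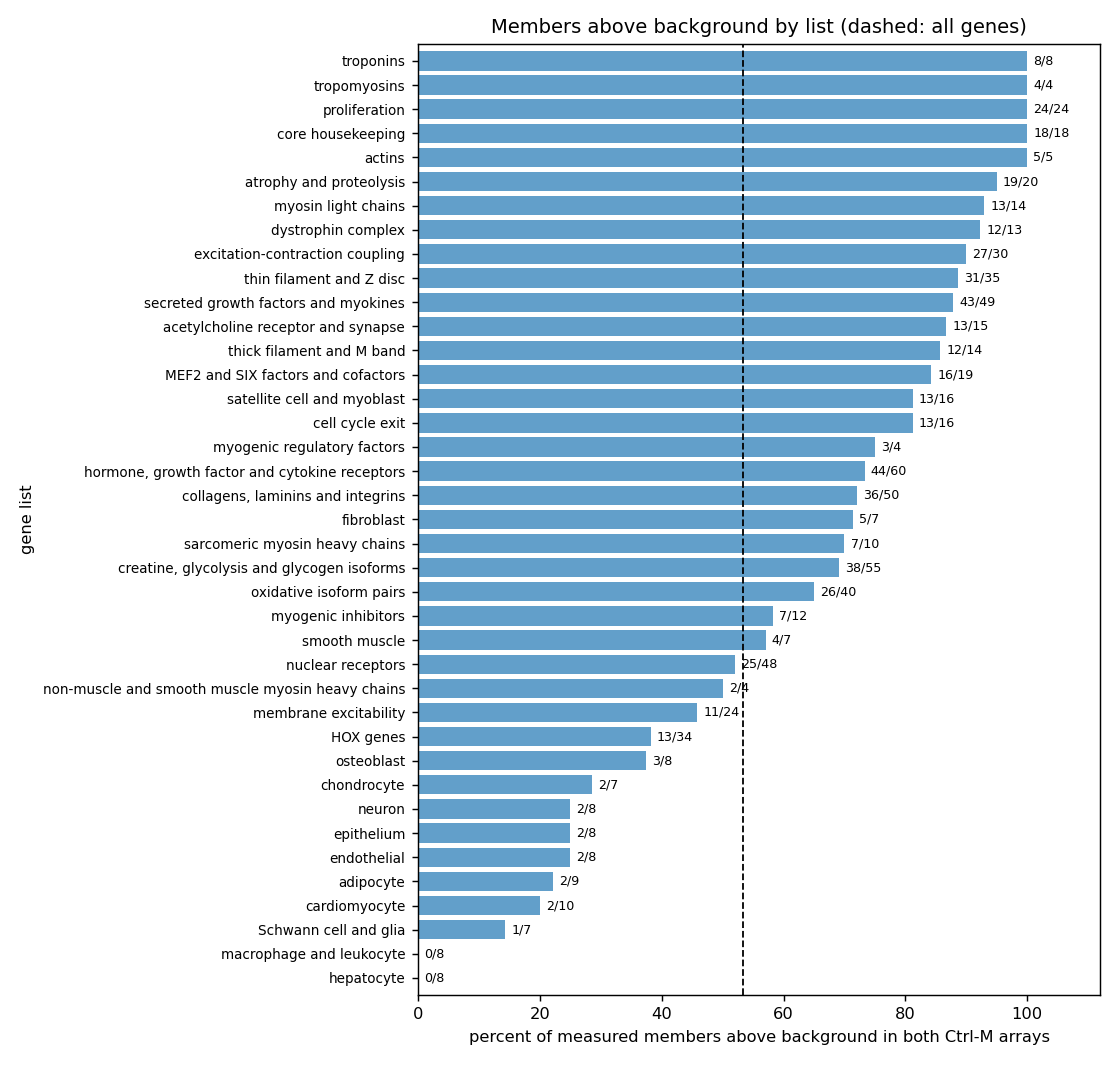
Percent of measured members (horizontal axis) above background in both Ctrl-M arrays, for each gene list (vertical axis), with the number above and the number measured beside each bar and the 53.4% of all genes as a dashed line. The lists of sarcomere parts lie to the right of the line, and the leukocyte and hepatocyte lists have no member above background.

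Of the collagens, laminins and integrins 36 of 50 measured genes were above (72.0%, beside 53.4% of all genes). *Fn1*, fibronectin, read 18.0 and 18.01. *Lama2*, the laminin chain of the muscle basement membrane, read 11.17 and 10.75 and *Lama4*, a chain of developing and vascular tissue, 8.31 and 8.25, whereas the epithelial *Lama3* was below on both scales at 3.62 and 3.88. *Itgb1*, the shared integrin beta chain, read 16.76 in both arrays. Of the alpha chains that bind laminin, *Itga7* was brighter than *Itga6*, at 11.72 and 11.69.

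Secreted factors were above in 43 of 49 cases (87.8%). Hormone, growth factor and cytokine receptors were above in 44 of 60 (73.3%), beside 53.4% of all genes. *Igf2*, a growth factor of differentiating myoblasts, read 16.32 in replicate 1 and 15.37 in replicate 2, one of the wider gaps among bright genes, and *Igf1* read 12.57 and 12.85. *Igfbp5*, the binding protein of the same axis, read 15.18 and 15.35. *Mstn*, myostatin, the muscle growth inhibitor, was below on both scales at 4.49 and 4.23, while *Fst*, its antagonist follistatin, read 10.76 and 11.21. *Il6*, at 3.77 and 4.55, was below on both scales, and its receptor chains read 7.53 and 6.88 (*Il6ra*) and 14.33 and 14.37 (*Il6st*). *Insr*, the insulin receptor, read 11.78 and 11.83 and *Igf1r* 9.41 and 9.16. Of the adrenergic receptors, *Adrb1*, above on the authors' average only, and *Adrb3* were not above.

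Nuclear receptors were above about as often as any gene, in 25 of 48 cases (52.1%, beside 53.4% of all genes). *Arnt*, listed with them as the partner of the aryl hydrocarbon receptor, read 11.90 and 11.93, *Nr1d2*, a clock receptor, 11.45 in both arrays and *Nr2f2* 11.32 and 11.14. *Thra*, a thyroid hormone receptor, read 9.16 and 9.17 and its relative *Thrb* 4.02 and 3.47. *Ppara*, at 4.34 and 4.2, and *Rxrg*, at 3.71 and 3.70, a receptor of fatty acid use and a retinoid X receptor, were below on both scales, while *Pparg* read 7.40 and 6.89. *Nr3c1*, the glucocorticoid receptor, read 9.12 and 9.45. Genes of atrophy and proteolysis were above in 19 of 20 cases. The ubiquitin ligase gene *Fbxo32* read 10.28 and 10.27 and *Trim63*, another, 9.30 and 9.60.

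HOX genes, which carry positional identity from the embryo, were above in 13 of 34 measured cases (38.2%, beside 53.4% of all genes). Some of the brighter ones were neighbours in the genome. On chromosome 15 *Hoxc13*, *Hoxc12*, *Hoxc11*, *Hoxc10* and *Hoxc9* lie side by side and all 5 were above, with *Hoxc11* at 9.87 and 9.75 and *Hoxc10* at 9.80 and 9.69. *Hoxc8*, the next in line, read 3.47 and 3.78 and was below on both scales, and *Hoxc6* read 8.10 and 7.83. On chromosome 6 *Hoxa10* read 9.92 and 10.17 and *Hoxa11* 6.79 and 6.72, and *Hoxa9* was left out because its probe set is shared with another gene. Farther along that cluster *Hoxa3*, at 7.33 and 7.08, and *Hoxa4*, at 5.95 and 6.36, were above too. In the *Hoxb* cluster on chromosome 11 *Hoxb7*, at 6.35 and 6.57, and *Hoxb2*, at 5.98 and 5.79, were above. In the *Hoxd* cluster on chromosome 2 only *Hoxd8*, at 5.94 and 5.61, was above among the 7 genes measured. On the authors' average 12 more HOX genes lay above, so the count for this family depends on the scale.

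The 20 brightest probe sets with 1 gene symbol included chaperone, mitochondrial, cytoskeletal and translation genes. *Hspa8*, a constitutive chaperone, came first at 19.29 and 19.40, and the mitochondrial genes *COX1*, at 19.31 and 19.35, and *ND1*, at 19.19 and 19.20, were among the first 6. The elongation factor gene *Eef1a1* read 19.16 and 19.26. *Lgals1*, a galectin abundant in myoblasts, read 18.83 and 18.82, *Ogn*, osteoglycin, a matrix proteoglycan, 18.19 and 18.16, and *Sparc*, a matrix protein, 18.1 and 18.0. *Acta2* was the only gene of the contractile lists other than *Actb* and *Vim* in this group.

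The 2 arrays agreed closely across probe sets. Pearson's r was 0.994 over all 22206, 0.995 above background and 0.831 below it or on either side, and probe sets are not independent replicates. Both arrays share their probes and their normalization. The median difference in size was 0.17 above background and 0.28 otherwise. By at least 2-fold, 155 probe sets (0.698%) were higher in replicate 2 and 213 (0.959%) were lower, and 43 of these 368 were above background in both arrays. The widest gap above background was that of the predicted gene *Gm11096*, at 5.87 and 8.64. Genes with a known product and a wide gap included *Slc16a6*, a transporter, at 6.00 and 7.73. Others were *Rnf111*, at 7.32 and 6.03, and *Yipf2*, a Golgi protein, at 9.12 and 7.96. *Gm11096* and *Slc16a6* were not above on the authors' average. *Gm11114* was the brightest of this kind, at 17.88 and 16.64.

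Contractile genes leaned to 1 of the arrays. Of the 80 contractile genes above background 66 were higher in replicate 2, 11 were lower and 3 were equal, with a median difference of 0.16, whereas 51.8% of all genes above background were higher there, with a median of 0.02. The widest gap of these 80 was that of *Myl2*, at 1.32, followed by *Ttn*, at 12.01 and 12.81, with 0.80. *Tnnc2* had a gap of 0.47. *Ckm*, which is outside the contractile lists, had a gap of 0.45. All 7 sarcomeric myosin heavy chains above background and all 4 tropomyosins were higher in replicate 2. Cytosolic ribosomal proteins leaned the same way, with 59 of 62 higher and a median of 0.14. So did genes with a complex I symbol, with 30 of 37 and a median of 0.19. Genes with a log2 signal above 14 were higher in replicate 2 in 58.8% of cases, and after a smooth curve of the difference on the signal was taken off, 62 of the 80 contractile genes (77.5%) were higher, against 50.5% of all genes. Proliferation genes did not lean this way, with 10 of 24 higher and a median of -0.03. With 1 array against 1 array no test could be made, and what lies behind the lean was not tested.

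**Figure D5:**
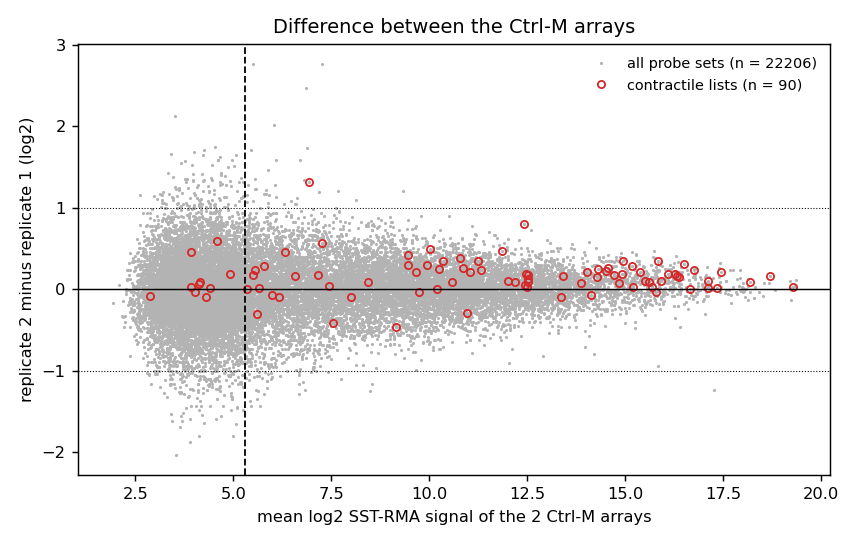
Difference of log2 SST-RMA signal, Ctrl-M replicate 2 minus replicate 1 (vertical axis), against the mean of both arrays (horizontal axis), for all 22206 probe sets (grey points) and the 90 measured contractile genes (red circles). The dashed line is the background level, the dotted lines mark 2-fold, and most red circles above background lie above 0, by a median of 0.16.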

How the data were processed

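The study measured total RNA of C2C12 myotubes on 6 Clariom S Mouse arrays, and the 2 untreated ones (Ctrl-M, replicate 1 and replicate 2 from the labels) were used here. The authors deposited log2 signals, made by SST-RMA over the 6 arrays together with Expression Console 1.4.1.46. Per the file headers, probes were corrected for GC content, scaled, adjusted for background, quantile normalized and summarized by median polish. Because the arrays were normalized together, the distribution of an untreated array is set in part by treated ones. Values have 2 decimals, and 57692 of 57692 entries equal those of the deposited value table. The Ctrl-M average of the authors' deposited log2 table, made in Transcriptome Analysis Console, is on another scale and served as an alternative. The sources used here do not explain the difference in scale. Its fold changes, p-values and FDR hold the authors' own comparisons and were not used.

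After 6640 control entries were left out, 22206 probe sets remained, 21367 with 1 symbol, 836 with several and 3 with none. Gene names are from the array annotation. A gene was represented by its brightest probe set with 1 symbol, and 132 genes had several. Of 732 genes in 40 lists 710 were measured, 20 were only in probe sets shared with another gene and 2 were not matched. Of the measured genes, 4 were matched through a RefSeq synonym. The background level is the 95th percentile of the mean of the chemosensory receptor probe sets. Genes were named by rule: members of the lists and of 22 symbol families, the 20 brightest probe sets, and the 10 largest differences between the arrays in each direction. The values of some list members are not reported here. The members and lists were chosen with earlier results of these data known. With 1 group of 2 arrays there is no comparison between groups and no test, and the number of arrays limits the precision. Positions and promoter sequences are from RefSeq, GRCm38.p6, the build of the array annotation. The counting steps were tested on simulated data. The alternatives were other background levels, 1 array alone, the mean of both arrays, the authors' average, only probe sets with 1 symbol, the mean of all probe sets of a symbol, other fold limits and a loess curve. Computations used Python 3.11.15 with pandas 2.3.3, numpy 2.4.6 and statsmodels 0.14.6.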

Additional observations from a re-analysis of the deposited data

How the results depend on the processing

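The count of probe sets above background was 11811. It stayed within 1.5 times of that with other percentiles of the chemosensory receptors, with antigenomic control probes, with the mean of both arrays, on the authors' average and with only 1-symbol probe sets, from 9165 to 14613. Without Ctrl-M replicate 1 or replicate 2 it was 12127 or 12010. With the 95th percentile of the array's negative control entries, a level of 8.22 chosen after seeing the data, it was 7147. The 368 probe sets that differed 2-fold between the arrays became 2407 at 1.5-fold, 6 at 4-fold and 43 when only those above background in both arrays were counted, as these limits are built to do, and 354 after a loess curve. Of 240 counts of list members under 6 alternatives 220 stayed within 1.5 times. The lists were not recounted at the antigenomic level of 6.72 or the negative control level of 8.22. On the authors' average 11 of 40 lists did not, and there the hepatocyte list went from 0 to 4 and the HOX list from 13 to 25 members above. The cause was not tested. No list moved that far without Ctrl-M replicate 1, and 4 did without replicate 2, each by 1 or 2 genes near the level. No paired analysis was possible because the values come from 1 group and from no test. Dim probe sets had less in common between scales. Ranks on the arrays and on the authors' average had a Spearman correlation of 0.917 above background and of 0.428 otherwise, across probe sets, which are not independent, so the order of genes below 5.286 is not read here.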

Other observations

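Gene families defined by symbol gave a further picture of the untreated cultures, read against the 53.4% of all genes above background on the arrays. All 37 genes with a complex I symbol and all 17 with an ATP synthase symbol were above. Membership goes by symbol alone, so a member need not be a subunit. *Atp5sl*, at 5.57 and 5.75, and *Atp5s*, at 5.60 and 5.44, were close to the level. Above were also 73 of 75 mitochondrial ribosomal proteins and 62 of 65 cytosolic ones. The exceptions among the latter included *Rpl3l*, a ribosomal protein gene of adult heart and skeletal muscle, at 2.98 and 3.64, and *Rpl39l*, a testis form, at 4.39 and 4.21. Of 39 proteasome subunits 35 were above, and the testis subunit *Psma8* and the thymus subunit *Psmb11* were below, at 3.64 and 3.23, and at 2.99 and 3.52. *Rpl39l* and *Psmb11* were above on the authors' average. Replication-dependent histones were above in 55 of 59 cases with a median of 15.28, near the 15.17 of the cytosolic ribosomal proteins. Some copies had the same values, such as *Hist2h2aa1* and *Hist2h2aa2*, both at 18.33 and 18.22. What the histone probe sets share was not tested, so some of these 59 may not be separate readings. Which cells of the culture gave these signals was not tested either. Zinc finger genes with the symbol Zfp were above in 267 of 355 cases but dim, with a median of 7.30.

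Families of surface and signalling proteins ranged widely. Of 366 solute carriers 180 were above (49.2%), and of 35 chemokines 15 (42.9%). Of 33 interleukins 5 were above, led by *Il33* at 10.46 and 10.54 and *Il18* at 7.74 and 7.81. Among the chemokines *Cxcl12*, which guides muscle progenitors, stood out at 12.87 and 12.83. Of 99 cytochromes P450 15 were above, and the brightest was *Cyp51*, an enzyme of cholesterol synthesis, at 14.76 and 14.86. Among 23 cadherins *Cdh2*, at 14.23 and 14.28, and *Cdh11*, at 13.58 and 13.55, were brighter than *Cdh15*, the muscle cadherin, at 10.98 and 11.08. Claudins, the proteins of epithelial tight junctions, were above in 2 of 32 cases. Keratins were above in 9 of 47 cases and type I interferons in 2 of 14.

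Some probe sets held very different ranks on the arrays and on the authors' Ctrl-M average. Of all probe sets 848 differed by more than 30 percentile points, 201 of them above background and 647 not. *Gm11096* stood at percentile 61.2 on the arrays and 0.1 on the authors' average, and *Hscb*, a cochaperone of iron-sulphur assembly, at 60.4 and 11.5. Neither was above background on that average. *Gm11114*, at 17.88 and 16.64 on the arrays, had 6.95 on the authors' scale.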
